A study of Mus musculus with 5 samples.

Results

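Foxa1, Foxa2, Foxa3, Foxb1, Foxb2, Foxd3, Foxe1 and Foxl2 are 8 of the 44 Fox genes annotated in the mouse and 8 of 21938 protein-coding genes examined. They were taken by name as Fox genes known from endodermal and neural lineages, with earlier results of these data known. Of these genes, Foxl2 is best known from other tissues named below. The peaks counted for each gene are those that overlap its annotated body or the 5 kb on either side of it (GENCODE M21 on the GRCm38 genome build), a stretch called the window of the gene. The windows were between 11487 and 20255 bp long.

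H3K27me3, the trimethylated lysine 27 of histone H3, was profiled by chromatin immunoprecipitation and sequencing (ChIP-seq) in molar mesenchyme of wildtype C57BL/6 mice at post natal day 3, from molars freed of their epithelium. The 5 libraries were 2 with an H3K27me3 antibody, 2 of input chromatin and 1 negative control with IgG. All 5 shared genotype, strain, age and tissue, so no treated or mutant group was compared, and the labels do not say whether the replicates came from separate animals or pools. Broad peaks came as 3 deposited lists, in which replicate 1 was called once with its input and once with IgG as the control, and replicate 2 with its own input. The second list is a further call on the first library and not a replicate.

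Fox proteins are transcription factors that share the forkhead, a winged helix DNA-binding domain. Many of their genes are active only in particular lineages, and such developmental regulators, whose 5′ ends often lie in CpG-rich DNA, are typical targets of Polycomb repressive complex 2. Ezh2 is the subunit of that complex that places H3K27me3, a mark known to spread over broad domains of silent developmental genes.

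The DNA stretches called in both replicates are shown first, because they are the positions at these genes on which the replicates met. There were 8 such stretches, in the windows of 5 genes, and all 8 were also overlapped by the list called against IgG. That list is a second call on the replicate 1 library and overlapped 33 of all 45 replicate 1 peaks against input, so it adds no replication. Of the 8, 7 are printed, read from the RefSeq copy of GRCm38.p6 in the direction of transcription of the named gene, in lower case with each CpG dinucleotide in capitals. The other stretch lies in the Foxb1 UTR and is described in words only. All those printed lie in the flanks of the named gene, outside its exons and introns.

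Foxb2 upstream stretch, chr19:16874314-16874613, minus strand: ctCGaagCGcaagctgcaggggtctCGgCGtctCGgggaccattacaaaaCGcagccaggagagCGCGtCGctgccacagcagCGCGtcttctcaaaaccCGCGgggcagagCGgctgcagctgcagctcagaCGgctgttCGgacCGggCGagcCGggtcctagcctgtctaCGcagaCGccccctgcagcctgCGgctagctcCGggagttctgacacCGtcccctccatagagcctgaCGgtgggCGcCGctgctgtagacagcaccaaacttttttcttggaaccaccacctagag
Foxa1 downstream stretch, chr12:57537707-57537885, minus strand: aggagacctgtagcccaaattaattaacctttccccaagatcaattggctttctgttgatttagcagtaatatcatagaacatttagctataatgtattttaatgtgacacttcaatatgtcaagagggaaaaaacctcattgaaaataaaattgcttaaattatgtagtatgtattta
Foxa1 upstream stretch, chr12:57551792-57551868, minus strand: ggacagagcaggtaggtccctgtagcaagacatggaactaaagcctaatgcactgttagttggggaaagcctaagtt
Foxb1 downstream stretch, chr9:69754861-69754991, minus strand: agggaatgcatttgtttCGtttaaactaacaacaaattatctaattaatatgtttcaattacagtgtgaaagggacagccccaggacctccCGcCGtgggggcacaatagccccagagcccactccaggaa
Foxd3 downstream stretch, chr4:99662159-99662341, plus strand: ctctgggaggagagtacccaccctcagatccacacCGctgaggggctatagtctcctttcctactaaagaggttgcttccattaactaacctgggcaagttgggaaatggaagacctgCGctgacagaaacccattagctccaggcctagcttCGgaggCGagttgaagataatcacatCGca
Foxl2 upstream stretch, chr9:98951528-98951737, plus strand: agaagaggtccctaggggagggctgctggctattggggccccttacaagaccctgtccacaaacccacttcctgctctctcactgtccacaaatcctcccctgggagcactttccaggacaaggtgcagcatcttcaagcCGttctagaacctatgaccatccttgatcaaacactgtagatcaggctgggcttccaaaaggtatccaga
Foxl2 downstream stretch, chr9:98963285-98963390, plus strand: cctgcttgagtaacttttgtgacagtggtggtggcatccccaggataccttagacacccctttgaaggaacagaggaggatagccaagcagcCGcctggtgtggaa

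The capitals separate the Foxb2 stretch from the others. The whole Foxb2 stretch was 346 bp, lay 486 to 831 bp upstream of the 5′ end and held 29 CpGs, 27 of them in the central 300 bp printed. Its ratio of observed to expected CpGs was 0.848. The Foxa1 stretches, of 179 and 77 bp, held 0 CpGs, and the pair at Foxl2, of 210 and 106 bp, held 1 CpG each. The Foxb1 and Foxd3 stretches lay between these, with 3 CpGs in 131 bp and 5 CpGs in 183 bp. The sequence of the stretches therefore varied, from AT-rich DNA with a GC content of 29.6% downstream of Foxa1 to CpG-dense DNA with 63.0% upstream of Foxb2.

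All 8 genes had at least 1 peak in each of the 3 lists. Over all protein-coding genes, the window held a peak for 25.0% of genes in replicate 1 called with input, 25.9% with IgG, 35.7% in replicate 2, and 12.7% in all 3 lists at once. A peak in both replicates against input was found for 8 of the 8 Fox genes and for 15.7% of all genes. Among genes whose windows were no longer than the longest of the 8, that share was 6.24% (494 of 7912 genes). At least 3 peaks in each replicate were found for 6 of the 8 genes, all but Foxa3 and Foxb2, and for 3.82% of all genes (6.23% in replicate 1 and 8.33% in replicate 2 taken singly). These are descriptions, since 2 H3K27me3 libraries allow no test between groups and the genes were chosen with earlier results of these data known. They also rest on peaks of low enrichment. With a fold enrichment over input of at least 3, Foxa1 was the 1 gene left with a peak in both replicates. That filter kept 2040 of 22757 replicate 1 peaks and 522 of 33379 replicate 2 peaks in the whole lists. The deposited −log10 q was above 0 for 0 of the 45 replicate 1 peaks at these genes against input. Against IgG it was above 0 for 0 of the 60 peaks, and in replicate 2 for 2 of the 31. In the whole lists it was above 0 for 1 of 22757, 0 of 24881 and 245 of 33379 peaks. The file headers state that no q was calculated for broad calls, as described under processing, although some deposited values were above 0. The origin of those values is not known, so these counts cannot rate the strength of the peaks.

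Summed over the 8 windows, 45 peaks were called from replicate 1 with input, 60 from the same library with IgG, and 31 from replicate 2. The replicates against input averaged 38 ± 9.90 peaks (SD, n = 2). Peaks covered 9.51% of the 113739 bp in replicate 1, 11.0% when the same library was called against IgG, and 7.19% in replicate 2. The mean over the replicates against input was 8.35% ± 1.64 (SD, n = 2). The average protein-coding gene had 0.222% of its window covered in replicate 1, 0.259% against IgG and 0.316% in replicate 2, and the median gene had 0%. The replicate with the larger list thus had fewer peaks at these 8 genes. The shallower replicate 1 had 22757 peaks in all and the deeper replicate 2 had 33379.

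**Figure D1:**
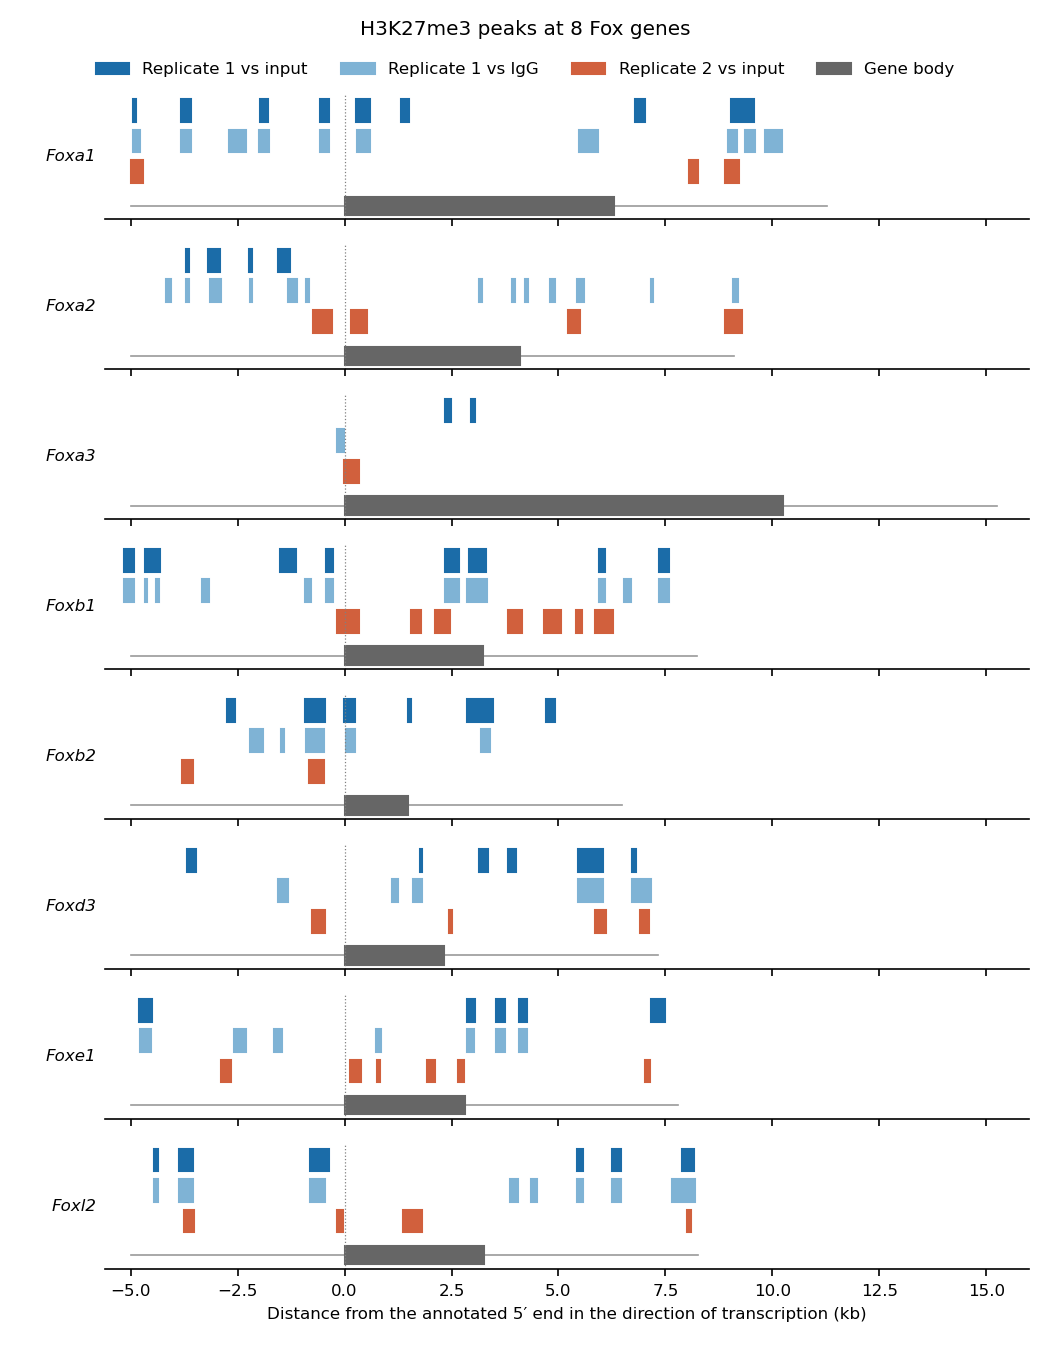
Peaks in the windows of the 8 genes, each row a gene aligned at its annotated 5′ end (0 kb, dotted line) and drawn in the direction of transcription, with distance in kb on the horizontal axis. Coloured blocks are peaks of the 3 lists, drawn to scale, the grey block is the gene body and the thin line its 5 kb flanks; at Foxb1, 7 replicate 2 peaks run along the body and the downstream flank, while at Foxa3 each list has only 1 or 2 peaks.

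The covered share of a window is its percentage of bases inside peaks. In order of the mean over both replicates against input, the genes ran Foxb1, Foxb2, Foxl2, Foxd3, Foxa1, Foxe1, Foxa2 and Foxa3. Of the 7 steps between neighbours in that order, the one from Foxa2 to Foxa3, of 5.55 percentage points, was the only one larger than the larger SD of the pair (2.80). The middle of the order was close, with Foxd3 at 8.70%, Foxa1 at 8.60% and Foxe1 at 8.58%. Each of the 8 stood above 97.055% or more of all protein-coding genes by this mean, Foxa3 being the lowest.

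**Figure D2:**
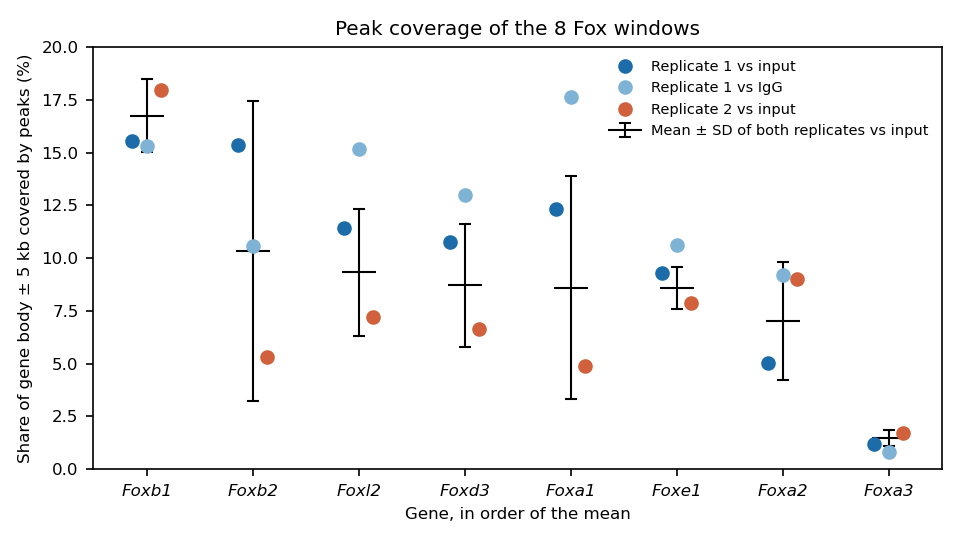
Share of each window covered by peaks (vertical axis, percent) for the 8 genes in order of their mean. Points are the 3 lists, and the bar and whiskers give the mean ± SD of both replicates against input; Foxb1 stands at 16.7% and Foxa3 at 1.46%, while the replicates are widest apart at Foxb2, at 15.4% and 5.30%.

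The Foxa proteins are pioneer factors, which bind their sites in compacted chromatin. Foxa1 and Foxa2 act in the endoderm that forms gut, liver, pancreas and lung, and Foxa2 also in the notochord and the floor plate of the neural tube. Foxa3 acts in liver and gut.

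Foxa1 (ENSMUSG00000035451.7, chromosome 12, 57540628 to 57546916, minus strand) had 8 replicate 1 peaks with input as the control, 10 with IgG, and 3 replicate 2 peaks. In that order they covered 12.3%, 17.6% and 4.86% of its window, a mean of 8.60% ± 5.29 (SD, n = 2) against input. Replicate 1 was high and replicate 2 low, and their SD was the second largest among the 8 genes. In replicate 1, 2 peaks lay in the intron, the nearer one beginning 261 bp downstream of the 5′ end, while in replicate 2 no peak lay closer than 4722 bp. These positions use the GENCODE 5′ end. The RefSeq start lies inside the GENCODE gene body, and the nearer replicate 1 peak covered 49 of the 250 bases upstream of it. The peak of most tags among the 31 of replicate 2 was here, the one that holds the downstream stretch printed above. It had a mean pileup of 8.94 tags, where the lowest in that list is 6, and a fold enrichment over input of 3.43. Over the same stretch the replicate 1 peak was 535 bp long, with 4.27 tags and a fold enrichment of 2.72.

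Foxa2 (ENSMUSG00000037025.11, chromosome 2, 148042877 to 148046969, minus strand) had 4 replicate 1 peaks when called with input, 13 when called with IgG, and 4 replicate 2 peaks. The covered shares were 5.02%, 9.19% and 8.99%, a mean of 7.01% ± 2.80 (SD, n = 2). With input as the control, the 4 peaks of the first replicate all lay upstream, between 1274 and 3713 bp from the 5′ end, whereas those of replicate 2 lay on both sides of it, 152 bp downstream and 302 bp upstream at the nearest. No replicate 1 peak against input met a replicate 2 peak at this gene. Against IgG, the same replicate 1 library had 7 further peaks downstream of the 5′ end, 2 of which overlapped replicate 2 peaks in the downstream flank. Equal counts of 4 in the replicates therefore hid different positions. The lincRNA 9030622O22Rik reaches into the downstream flank, where it held 0, 2 and 1 peaks of the lists.

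Foxa3 (ENSMUSG00000040891.6, chromosome 7, 19013284 to 19023538, minus strand) had the fewest peaks, with 2 of replicate 1 called with input, 1 called with IgG, and 1 of replicate 2. Those calls covered 1.19%, 0.824% and 1.73% of its window, a mean of 1.46% ± 0.381 (SD, n = 2). Against input, both replicate 1 peaks were intronic, at 2345 to 3046 bp downstream of the 5′ end. The replicate 2 peak, of 350 bp with 7.44 tags and a fold enrichment of 2.90, ran across the 5′ end into coding sequence. Called against IgG, replicate 1 had a 167 bp peak ending 12 bp upstream of that end, which overlapped the replicate 2 peak. So Foxa3 had peaks in both replicates but none in common against input.

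The 250 bases upstream of the Foxa3 start in RefSeq, on the minus strand of GRCm38.p6, are shown because the calls met there only when IgG was the control, again with CpGs in capitals.
Foxa3 upstream bases, chr7:19023540-19023789: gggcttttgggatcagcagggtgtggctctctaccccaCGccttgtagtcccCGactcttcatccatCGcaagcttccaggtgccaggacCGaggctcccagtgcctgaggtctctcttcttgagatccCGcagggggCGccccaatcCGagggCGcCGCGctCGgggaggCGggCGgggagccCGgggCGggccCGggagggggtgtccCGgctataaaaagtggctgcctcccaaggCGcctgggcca
The IgG-called peak covered 167 of these bases and the replicate 2 peak 21, while replicate 1 against input covered 0. They hold 18 CpGs. The 5′ end of Sympk, which encodes a scaffold protein of mRNA 3′ end processing and is widely expressed, lies 839 bp away on the other strand, and the part of Sympk inside the window held 0 peaks in all 3 lists.

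Foxb1 and Foxb2 are genes of the developing nervous system, Foxb1 being known from the hypothalamus and its mammillary bodies. Foxb1 (ENSMUSG00000059246.4, chromosome 9, 69757710 to 69760940, minus strand) had 8 peaks of replicate 1 with input as the control, 11 with IgG, and 7 of replicate 2, and the covered shares were 15.5%, 15.3% and 18.0%. The share was above 15% in every list, which held for none of the other 7 genes. Its mean, 16.7% ± 1.73 (SD, n = 2), stood above that of 99.98% of protein-coding genes. The replicate 2 peaks included one of 523 bp across the 5′ end, the longest of the 31 in that list, whereas the nearest peak of replicate 1 ended 273 bp upstream. The shared stretch not printed above lay 2338 to 2468 bp downstream of the 5′ end in the UTR of Foxb1, measured 131 bp and held 6 CpGs. The antisense transcript B230323A14Rik overlaps the gene, and 4, 6 and 3 peaks of the lists lay in the part of it inside the window, so these peaks cannot be told apart as belonging to one gene or the other.

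Foxb2 (ENSMUSG00000056829.4, chromosome 19, 16872319 to 16873805, minus strand) had 6 peaks of replicate 1 with input as the control, 5 with IgG, and 2 of replicate 2. The covered shares were 15.4%, 10.6% and 5.30%, a mean of 10.3% ± 7.12 (SD, n = 2), the widest spread of the 8. Replicate 1 had a 269 bp peak across the 5′ end into the coding sequence, with 5.13 tags and a fold enrichment of 3.14, which replicate 2 lacked. The CpG-dense stretch upstream was the longest that both replicates shared at any of the 8 genes. The replicate 2 peak there, of 346 bp, lay wholly within the replicate 1 peak of 446 bp, with fold enrichments of 2.73 and 2.81. The annotated locus of the lincRNA AC128703.1, on the other strand, spans it.

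Foxd3 acts in the early neural crest, from which dental mesenchyme descends, and in pluripotent cells. Foxd3 (ENSMUSG00000067261.4, chromosome 4, 99656299 to 99658622, plus strand) had 6 replicate 1 peaks (5 with IgG as the control) and 4 replicate 2 peaks, covering 10.8%, 13.0% and 6.64% of its window, the IgG-called value being the second. The mean was 8.70% ± 2.92 (SD, n = 2). The peaks clustered on the downstream side. In replicate 1 against input 1 peak lay upstream, at 3479 bp, and in replicate 2 also 1, at 465 bp. The downstream stretch printed above was inside a 579 bp peak of replicate 1 that had the same boundaries against input and against IgG, while the replicate 2 peak reached further downstream. The antisense transcript Gm12682, at the edge of the window, held 1 peak in each list. The lincRNA Gm12688, upstream, held 1 peak in the IgG-called list alone, and the miRNA gene Gm23366, inside Foxd3, held 0 in all 3 lists.

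Foxe1 acts in the thyroid and the palate, and Foxl2 in the ovary and the eyelid. Foxe1 (ENSMUSG00000070990.2, chromosome 4, 46343609 to 46346412, plus strand) had 5 replicate 1 peaks (7 with IgG as the control) and 6 replicate 2 peaks. The covered shares were 9.27%, 10.6% and 7.89%, with a mean of 8.58% ± 0.977 (SD, n = 2). The amounts were close, while the peaks of the replicates against input lay side by side or apart. All 5 replicate 1 peaks against input lay in the flanks, the nearest downstream one 2866 bp from the 5′ end, whereas 4 of the 6 replicate 2 peaks lay in the single exon. No replicate 1 peak against input overlapped a replicate 2 peak, and against IgG 1 did, in the coding sequence at 734 to 842 bp. Some peaks against input were near neighbours all the same. Replicate 1 peaks at 2866 to 3057 bp and 7165 to 7479 bp downstream lay next to replicate 2 peaks. Those replicate 2 peaks lay at 2645 to 2797 bp and 7028 to 7145 bp. The antisense transcript Gm12446 overlaps the gene and held 1, 4 and 3 of the peaks.

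Foxl2 (ENSMUSG00000050397.4, chromosome 9, 98955288 to 98958543, plus strand) had 6 replicate 1 peaks (8 with IgG as the control) and 4 replicate 2 peaks. They covered 11.4% of the window in replicate 1 (15.1% with IgG) and 7.20% in replicate 2, with a mean of 9.32% ± 3.00 (SD, n = 2). With either control, every replicate 1 peak was in a flank, and none in the gene body. In replicate 2, 1 of the 4 lay in the coding sequence, a peak of 445 bp beginning 1362 bp downstream, and another ended 34 bp upstream of the 5′ end. Foxl2os, a noncoding transcript on the other strand, begins 11 bp from the Foxl2 5′ end, and held 3, 3 and 2 of the peaks in its part of the window.

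The flanks made up 70.3% of the bases of the 8 windows. Replicate 1 had 37 of its 45 peaks in the flanks against input (82.2%) and 50 of 60 against IgG (83.3%), and replicate 2 had 21 of 31 (67.7%), near the share of the bases. Peaks covered 5.07% of the 8 gene bodies in replicate 1, 6.67% against IgG and 8.09% in replicate 2, where the bodies of all protein-coding genes were covered to 0.125%, 0.140% and 0.266%. Gene bodies were thus covered more in replicate 2 over all genes as well. In the upstream flanks of the 8 genes replicate 2 was the lowest, with 11.0%, 13.5% and 6.13%, and over all genes the values were 0.292%, 0.352% and 0.350%. The downstream flanks gave 11.7%, 12.2% and 7.49% at the 8 genes and 0.204%, 0.223% and 0.285% over all genes. Closest to the 5′ ends, within 500 bp on either side, replicate 2 covered 23.5% and replicate 1 covered 12.2% against input and 12.1% against IgG. Over all protein-coding genes these stretches around 5′ ends were covered to 0.446%, 0.292% and 0.391% in the same order of lists. Depth, tag length (49 bp in replicate 1, 74 bp in replicate 2) and the animals or pools behind the libraries cannot be told apart as sources of a difference between replicates.

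A peak within 1 kb of the annotated 5′ end was present at 4 of the 8 genes in replicate 1 called with input, at 7 with IgG as the control, and at 7 in replicate 2. The shares over all protein-coding genes were 3.87%, 4.52% and 4.16%. In both replicates against input, 3 of the 8 had such a peak, namely Foxb1, Foxb2 and Foxl2, compared with 1.04% of all genes. Foxa1 had one in replicate 1 alone. Foxa2, Foxa3, Foxd3 and Foxe1 had one in replicate 2 and not in replicate 1 against input. The choice of control for the same replicate 1 library moved the number from 4 to 7 genes, adding Foxa2, Foxa3 and Foxe1.

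Overlap of single peaks between replicates was lower than the presence of peaks per gene. Of the 45 replicate 1 peaks against input, 8 (17.8%, Wilson 95% interval 9.29 to 31.3) overlapped a replicate 2 peak by at least 1 base, in 5 of the 8 windows. Of the 31 replicate 2 peaks, 8 (25.8%, 13.7 to 43.2) overlapped one of replicate 1. Over the whole lists these shares were 2.85% and 1.90%. Peaks are sparser there, so these shares are no baseline for overlap within the 8 windows. Replicate 2 peaks covered 12.4% of the bases of the replicate 1 peaks and 7.19% of the windows as a whole. The average protein-coding gene had 0.316% of its window covered by them. The 2 controls of replicate 1 gave 33 of 45 peaks in common (73.3%, and 51.0% over the whole list), which are calls on 1 library and not a replication. The intervals cover counting error only and treat peaks as independent, which peaks in the same window are not.

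The peaks at the 8 genes were long for their lists and rested on few tags. Their median length was 215 bp in replicate 1, 196.5 bp against IgG and 263 bp in replicate 2, against 119, 120 and 181 bp in the whole lists. The median pileup was 4.49, 4.38 and 6.63 tags (4.09, 4.22 and 6.16 in the whole lists), and the highest was 5.38, 6.00 and 8.94 tags. Fewer of them sat at the lowest pileup of the list (4, 4 and 6 tags), with 11.1% of peaks in replicate 1, 21.7% against IgG and 16.1% in replicate 2, compared with 44.5%, 35.1% and 37.9% of the whole lists. Median fold enrichments were 2.81, 2.69 and 2.61, close to the 2.63, 2.66 and 2.45 of the whole lists. In such bulk chromatin, fewer cells with the mark and less of the mark per cell cannot be told apart.

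The peaks of the 8 genes fell off with distance from the 5′ end. In replicate 1 against input there were 4.25 peaks per 10 kb within 5 kb of the 5′ ends, 3.88 at 5 to 10 kb, 1.38 at 10 to 20 kb and 0.417 at 20 to 50 kb. Around all protein-coding genes the density was 0.203 within 5 kb and 0.106 at 20 to 50 kb. Replicate 2 had 2.63, 2.63, 0.75 and 0.375 peaks per 10 kb over the 8 genes at these distances, and 0.173 and 0.129 over all genes at the nearest and the farthest. In both replicates the density was thus higher within 10 kb of the 5′ ends than farther out.

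**Figure D3:**
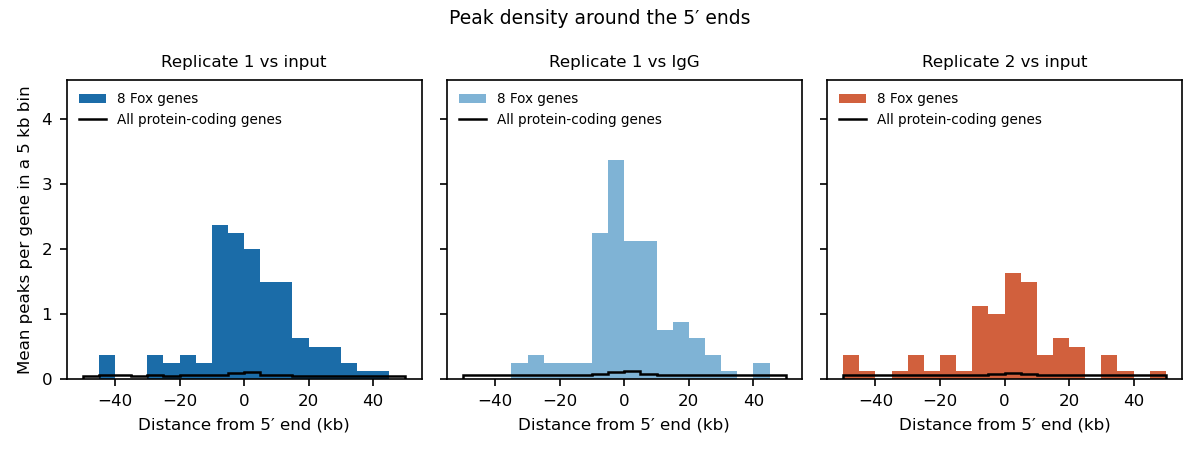
Mean number of peaks per gene in 5 kb bins (vertical axis) by distance from the annotated 5′ end in kb, negative values being upstream, in 1 panel for each list. Filled bars are the 8 Fox genes and the black line all protein-coding genes, and the bars stand highest within 10 kb of the 5′ end in each panel.

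When peaks no more than 5 kb apart were joined into stretches, the stretch at Foxb1 was present in all lists, 27.6 kb with 18 peaks in replicate 1 against input, 23.9 kb with 18 peaks against IgG and 11.2 kb with 8 peaks in replicate 2. At Foxd3 too a stretch overlapped the gene body in every list, with lengths of 5.87, 9.33 and 15.1 kb. The longest single stretch, of 31.2 kb with 13 peaks, was that of Foxa2 in replicate 2, at which replicate 1 against input had none over the gene body. Conversely Foxa1 had a stretch of 10.4 kb with 9 peaks in replicate 1 and none in replicate 2.

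CpG content varied among the genes and their peaks. Within 500 bp on either side of the 5′ ends, the ratio of observed to expected CpGs ranged from 0.474 (Foxa1) to 0.819 among the 8 genes, with a median of 0.674, against 0.552 over all protein-coding genes. Over whole windows it ranged from 0.318 at Foxa3 to 0.727 at Foxd3. The median peak had a ratio of 0.388 in replicate 1, 0.402 when it was called with IgG and 0.376 in replicate 2, below that of every window except the one of Foxa3. Foxa3, with the fewest peaks, thus also had the lowest CpG ratio over its window, and the part of base composition in the counts was not tested.

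Among the other 36 Fox genes, 17 had a peak in both replicates against input, and 9 had 0 peaks in all 3 lists. Of the 19 whose windows were no longer than the longest of the 8, 12 had such peaks. The median mean covered share was 0.346% for the 36 others, 1.81% for those 19 of comparable window length, and 8.65% for the 8 genes. The covered shares of the 8 overlapped with those of the others. Foxd1 at 8.23% lay above Foxa2 and Foxa3, and Foxd4 at 6.25% above Foxa3. Foxh1, Foxi1 and Foxk2 are the alphabetically first of those with 0 peaks. A peak within 1 kb of the 5′ end in both replicates was found at 3 of the 36. No test of the 8 against the 36 was made, since both were described with earlier results in view.

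For each of the 8, the protein-coding gene outside the Fox family with the most similar covered shares over the 3 lists was taken by Euclidean distance in percentage points. Foxb2 was nearest to Hoxd1 (0.968), whose shares were 15.8%, 11.4% and 4.98%. Foxe1 was nearest to Gfi1 (0.710) and Foxa3 to Flt1 (0.217). Foxa2 was nearest to Msx3 (1.69) and Foxa1 to Nkx2-6 (2.97). Foxd3 and Foxl2 had the same nearest gene, Nr2e1, at 1.84 and 1.65. Foxb1 had the most distant neighbour, Hoxb3, at 3.71. A distance over 3 lists, of which 2 share a library, describes resemblance in these values alone.

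The tissue could not be checked by expression, since the lists hold a histone mark. Of 14 dental mesenchyme marker genes 6 had a peak in both replicates, with a median mean covered share of 0.393%, and of 9 dental epithelium markers 2 did, with 0.0914%. Both medians were below the share of each of the 8 Fox genes. Over all protein-coding genes, 15.7% had a peak in both replicates, and the median covered share was 0%. Marker windows reached 328811 bp at Runx2 and 218340 bp at Trp63. They were not matched in length to those of the 8 genes, so the marker counts and shares are not like for like. H3K27me3 replicate 1 had 30369351 tags after duplicate removal and replicate 2 had 49947919, with 23688420 and 51681224 in their inputs and 24440452 in the IgG library.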

How the data were processed

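H3K27me3, input and IgG libraries of molar mesenchyme were grouped by their GEO labels. Per the submitters' processing notes and the study's methods, reads were aligned with BWA to mm10 (GRCm38) and handled with SAMtools and Partek. Per the file headers, the authors called broad peaks with MACS 2.1.1.20160309 at a p-value cutoff of 0.005 and an effective genome of 1.87 Gb, keeping 1 tag per position and scaling the larger library of a pair to the smaller. The modelled fragment lengths were 46 bp (replicate 1) and 71 bp (replicate 2), shorter than the tags, which narrows the pileup. Replicates were not pooled. Pileup was deposited as a signal, in scaled tags averaged over each peak, and was divided here by the scaling factor to give tags. Fold enrichment was deposited as a ratio, pileup over control background with a pseudocount of 1 on each side, which shrinks it most at low depth. The deposited −log10 p-values were used as a filter only, and peaks were selected by p-value without correction for multiple testing. The deposited −log10 q-values, which per the file headers were not calculated for broad calls, were above 0 for 1 of 22757 replicate 1 peaks, 0 of 24881 with IgG and 245 of 33379 replicate 2 peaks.

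Peaks were counted in windows from GENCODE M21, an overlap being at least 1 base, and covered bases were counted once. Sequences came from GRCm38.p6. The promoter table matched 6 of the 8 genes (neither Foxb1 nor Foxe1). Values over replicates are means ± SD of 2 libraries. No test between groups was possible, so shares are given beside those of all protein-coding genes, with Wilson 95% intervals for overlaps. The code was tested on simulated data (Python 3.11.15, pandas 2.3.3, numpy 2.4.6, scipy 1.17.1, pysam 0.24.0). Named were the 8 genes, annotated genes overlapping a window, the most similar gene outside the family for each, and, of the other Fox genes, the 3 of highest mean covered share, 1 of which is not reported here, and the alphabetically first 3 with 0 peaks. The genes and lists were chosen with earlier results of these data known. Alternatives were a fold enrichment or −log10 p of at least 3, replicate 2 cut to the number of replicate 1 peaks, IgG as control, each replicate alone, other flanks, distances and overlaps.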

Additional observations from a re-analysis of the deposited data

How the results depend on the processing

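Stricter peak filters had the largest effect. With a fold enrichment of at least 3, 7 of 45 replicate 1 peaks and 1 of 31 replicate 2 peaks remained at the 8 genes against input. In the whole lists, 2040 of 22757 and 522 of 33379 peaks remained. Only 1 gene, Foxa1, then had a peak in both replicates, and 0 had one within 1 kb of the 5′ end in both. The mean number of peaks fell from 38 to 4, the mean covered share from 8.35% to 0.773%, and 0% of replicate 1 peaks overlapped replicate 2. With a −log10 p of at least 3, the values were 1 gene, 0 genes, 4.5 peaks, 0.894% and 0%. This p-value filter kept 2 replicate 1 and 7 replicate 2 peaks at the 8 genes, and 744 and 3681 in the whole lists. The other Fox genes with a peak in both replicates went from 17 to 0 and 2 under these filters, and to 9 with flanks of 1 kb. The 3 genes with a peak near the 5′ end in both replicates became 6 with IgG as the control of replicate 1 and 8 within 5 kb, and each replicate alone gave 4 to 7. Flanks of 1 kb and 10 kb gave a mean of 16.5 and 59.5 peaks. The overlap of replicate 1 peaks was 8.89% when at least 50% of the peak had to be covered, and 53.3% for a replicate 2 peak within 1 kb. Of the values of these summaries under an alternative, 26 stayed within the spread of the replicates or within 1.5 times the count and 20 moved further. Some of the 26 could not have moved. The value of 1 replicate alone always lies within the SD of the pair around their mean. A count of all 8 genes in both replicates stays at 8 in either replicate alone. The tally of 26 is therefore no measure of robustness. No paired analysis was possible because each replicate has only its own peak calls and no result comes from a test. Single peaks at these genes rested on a pileup of at most 8.94 tags.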
